A study of Homo sapiens with 8 samples.

Results

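The abundant structural RNAs 7SK, 7SL, RMRP and RNase P RNA are described here through 6 genes: RN7SK, the genes RN7SL1, RN7SL2 and RN7SL4P of the 7SL family, RMRP and RPPH1. They were chosen by name, by matching the Ensembl identifiers of the count table to gene symbols, and they are 6 of the 63140 genes in that table. The values are read counts from ChIRP (chromatin isolation by RNA purification), in which fixed and sonicated lysate is captured with biotinylated probes and the RNA in the pull-down is sequenced. Neither the target of the probes nor an input library is named in the labels, so the values are amounts in a pull-down and not enrichments. The 8 libraries were labelled MOLM13 or OCI-AML4, both established human acute myeloid leukaemia lines. The cells were collected on day 3 after nucleofection. In the KO groups the cells received Cas9 ribonucleoprotein and in the CBE groups a cytosine base editor, with guide RNAs for the long non-coding RNA HOTSCRAMBL or for the control locus AAVS1. Each target was thus combined with each editor (AAVS1 KO, AAVS1 CBE, HOTSCRAMBL KO, HOTSCRAMBL CBE), and each of these 4 groups held 2 libraries, replicate 1 under the MOLM13 label and replicate 2 under the OCI-AML4 label. All cells were therefore edited and nucleofected, and no library of untreated cells entered a comparison. The labels do not say that libraries came from separate cultures, so p-values measure the spread between these libraries, which may be technical.

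These RNAs are made by RNA polymerase III and work inside ribonucleoprotein particles. 7SK holds the kinase P-TEFb, which releases paused RNA polymerase II, in an inactive complex with HEXIM and LARP7 proteins. 7SL is the scaffold of the signal recognition particle, which brings ribosomes making secreted and membrane proteins to the endoplasmic reticulum; its Alu domain, formed by the ends of the RNA, binds SRP9 and SRP14. RMRP is the RNA of RNase MRP, which cuts the precursor of ribosomal RNA in the nucleolus, and RPPH1 is the catalytic RNA of RNase P, which trims the 5′ end of transfer RNA precursors. The RNase MRP and RNase P particles share most of their proteins.

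How alike the genes are decides which reads could be assigned to one of them. RMRP, which had no window in common with another locus, is shown as the transcript sequence of GENCODE 29 for GRCh38, written 5′ to 3′ as DNA with no base marked.
RMRP: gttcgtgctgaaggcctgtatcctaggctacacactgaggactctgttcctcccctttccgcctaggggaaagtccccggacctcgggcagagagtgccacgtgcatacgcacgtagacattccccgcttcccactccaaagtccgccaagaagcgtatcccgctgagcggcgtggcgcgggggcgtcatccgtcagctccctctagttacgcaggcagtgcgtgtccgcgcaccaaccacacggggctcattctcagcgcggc
RN7SL1 lies on chromosome 14, 49586580 to 49586878, on the plus strand of GRCh38, in an intron of RPS29, a gene of the opposite strand. RN7SL3, a 7SL gene outside the 6, lies on the minus strand of the same chromosome, 49853616 to 49853914. RN7SL4P lies on chromosome 3, 15738515 to 15738809, on the plus strand, in an intron of ANKRD28, which is also on the opposite strand. RMRP lies on chromosome 9, 35657754 to 35658017, on the minus strand, 272 bases from CCDC107. Each is a gene of 1 exon. RN7SL2 was 98.33% identical to RN7SL1, RN7SL3 97.66% with 7 substituted bases, and RN7SL4P 85.67% with 24 substituted, 8 extra and 12 missing bases. Of the 100-base windows of RN7SL1, 74.5% occurred letter for letter in a transcript from another locus, against 82.09% in RN7SL2, 47.45% in RN7SL4P, 12.0% in RN7SL3 and 0% in RMRP. Multi-mapping reads were left uncounted, so the counts of 7SL genes come from the parts of each RNA that could be told apart. The counts of RMRP had no such overlap in the annotated transcripts.

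Total counts ran from 20548300 to 37970163 per library. The 10 myeloid markers on the fixed list (among them SPI1, CD33 and MPO) were detected in all 8 libraries, while HBB, HBG1, CD3E, CD2 and KRT19 were at 0 in all 8. The summed level of the 6 epithelial and stromal markers was 38.9 to 45.6 CPM (counts scaled to the library total) in AAVS1 libraries. In HOTSCRAMBL libraries it was 51.6 to 97.7 CPM. Only 1 of these 6 markers was detected in all 8 libraries, so the sum was not read as an amount of epithelial or stromal cells. For scale, the 10 myeloid markers summed to 1886 to 2026 CPM in AAVS1 libraries and 1776 to 2468 CPM in HOTSCRAMBL libraries. The 6 lymphoid markers summed to 8.23 to 11.7 CPM in AAVS1 and 6.32 to 18.4 CPM in HOTSCRAMBL libraries. The 6 erythroid markers summed to 0.16 to 3.04 CPM and 0 to 2.19 CPM. Mitochondrially encoded RNA took 6.77% to 7.23% of the counts in the 4 AAVS1 libraries and 10.2% to 11.9% in the 4 HOTSCRAMBL libraries. Nuclear protein-coding genes, with mitochondrially encoded ones left out, took 82.0% to 83.3% and 75.9% to 79.4%. The 6 genes together took 3.76% to 4.53% in AAVS1 libraries and 4.57% to 6.00% in HOTSCRAMBL libraries. In bulk counts, fewer cells of a type and less RNA per cell cannot be told apart. The line labels were not checked against a library of known line, and 0.495% of tested genes differed between them, so lines are named by label throughout. Levels below are CPM after TMM scaling, and differences are log2 fold changes with a standard error (SE). This SE was derived from edgeR's quasi-likelihood test, as the size of the log2 fold change divided by the square root of F. A gene is called when its adjusted p is under 0.05 in that test over the 24057 genes that passed the filter on low counts.

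RN7SK, RN7SL2 and RPPH1 were listed at 0 counts in all 8 libraries, and this count table cannot measure them. RN7SK (chromosome 6, 52995621 to 52995948, plus strand) shares all of its 328 bases with a second model named 7SK, which has 3 bases of its own and was also at 0. RN7SL2 (chromosome 14, 49862550 to 49862849, minus strand) shares all 300 bases with the model ENSG00000282885. RPPH1 (chromosome 14, 20343075 to 20343407, minus strand) shares all 333 bases with ENSG00000259001. Reads that fell on more than one gene model were left out by the authors' counting, and of the 2877 gene models in the table without a base of their own, 2877 were at 0 in every library. Among the 60263 other models, 41.63% were at 0. A count of 0 at the lowest total allows up to 0.146 CPM of assigned reads, for counting error only, and sets no limit on the RNA itself. The model over RPPH1 has 234 bases of its own and held 0, 0, 2 and 0 counts in the libraries labelled MOLM13 and 9, 17, 21 and 14 in those labelled OCI-AML4 (with knockout AAVS1 then HOTSCRAMBL, then the same with base editing). That difference of -4.77 on the log2 scale (SE 2.70) did not pass the test, with an edgeR adjusted p of 0.632. No other gene model of the table covers a base of RN7SL1, RN7SL4P or RMRP, and these 3 of the 6 genes passed the filter and were tested.

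RMRP was the highest or among the 3 highest genes of every library by count, and its level was higher in HOTSCRAMBL libraries than in AAVS1 libraries with both editors. RN7SL4P was lower with both editors. RN7SL1 was lower with base editing and did not pass the test with knockout. Both contrasts within an editor ask how the pull-down RNA of HOTSCRAMBL-edited cells differs from that of cells edited at the control locus in the same way. With knockout 2 of the 3 tested genes were called, 1 higher and 1 lower, where 8.76% of all tested genes were called (4.51% higher, 4.25% lower). With base editing 3 of 3 were called, 1 higher and 2 lower, against 8.83% of all tested genes (4.56% higher, 4.27% lower). Averaged over the editors 3 of 3 were called, 1 higher and 2 lower, against 12.3% (5.79% higher, 6.51% lower). The median log2 fold change of all tested genes was -0.01 with knockout, -0.02 with base editing and -0.04 averaged. Scaled by library totals alone, the split of all calls with knockout moved from 1085 higher and 1023 lower to 840 and 1695, the split with base editing from 1096 and 1028 to 782 and 1616, the averaged split from 1393 and 1565 to 995 and 2607, and the medians moved to -0.17, -0.15 and -0.18.

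**Figure D1:**
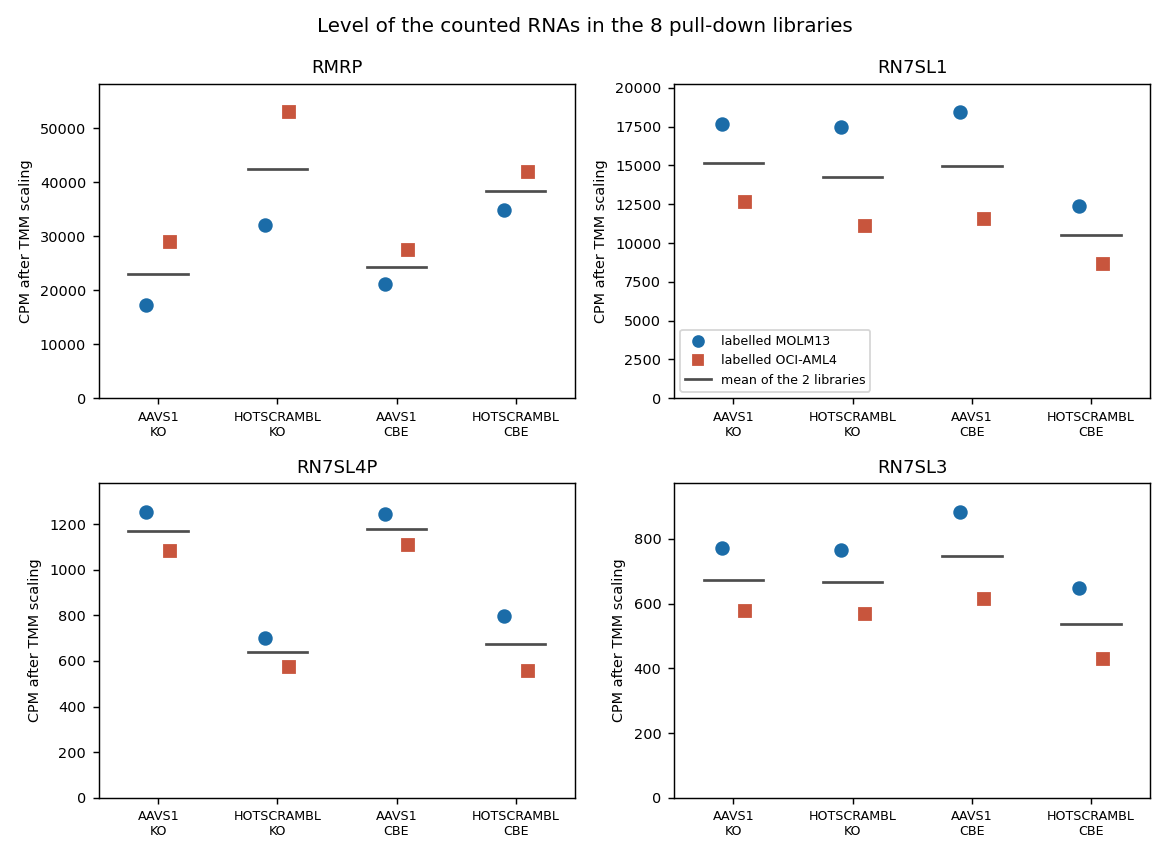
Level of RMRP, RN7SL1, RN7SL4P and RN7SL3 (CPM after TMM scaling, vertical axes from 0) in the 4 groups, with one point per library and a line at the mean of the 2 libraries. RMRP sits higher and RN7SL4P lower in both HOTSCRAMBL groups with no overlap with the AAVS1 group of the same editor, and the line labels keep one order for each RNA.

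RMRP stood at 17196 CPM in the MOLM13 library and 28848 CPM in the OCI-AML4 library of AAVS1 KO, and at 32015 and 52972 CPM in HOTSCRAMBL KO. In AAVS1 CBE it stood at 21175 and 27518 CPM, and in HOTSCRAMBL CBE at 34873 and 41887 CPM. Both HOTSCRAMBL libraries were above both AAVS1 libraries of the same editor, and the OCI-AML4 library was the higher of the pair in all 4 groups. Group means were 23022 ± 8239 CPM (SD, n = 2) in AAVS1 KO, 42494 ± 14819 in HOTSCRAMBL KO, 24347 ± 4485 in AAVS1 CBE and 38380.0 ± 4959 in HOTSCRAMBL CBE. Within a line the ratio of HOTSCRAMBL to AAVS1 was 1.86 and 1.84 with knockout (MOLM13, OCI-AML4) and 1.65 and 1.52 with base editing. RMRP rose by 0.89 on the log2 scale with knockout (SE 0.08, edgeR adjusted p = 4.88e-09) and by 0.67 with base editing (SE 0.08, edgeR adjusted p = 8.39e-07). Averaged over the editors the rise was 0.78 (SE 0.05, edgeR adjusted p = 5.09e-11). The fold with knockout and that with base editing differed by 0.22 (SE 0.11, edgeR adjusted p = 0.372), which did not pass the test. RMRP took 1.79% (95% exact binomial interval 1.78% to 1.79%) to 3.07% of all counts in AAVS1 libraries. In HOTSCRAMBL libraries it took 3.05% to 4.92%. Within each editor and line label, the RMRP share and the mitochondrial share given above were both higher in HOTSCRAMBL libraries. Within HOTSCRAMBL CBE they went opposite ways between the line labels. RMRP took 3.31% and 4.04% there and mitochondrial RNA 11.6% and 10.2% (MOLM13, OCI-AML4). In the other groups both shares were higher in OCI-AML4. With totals and scaling taken from nuclear protein-coding genes only, the rise was 0.92 with knockout and 0.65 with base editing. In a fit without the term for the labelled line the differences were 0.88 and 0.66, with edgeR adjusted p = 0.336 and 0.470, so the 2 calls rest on comparing libraries of the same line.

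RN7SL1, the 7SL gene with the most counts, stood at 17706 CPM (MOLM13) and 12664 CPM (OCI-AML4) in AAVS1 KO and at 17490 and 11070 CPM in HOTSCRAMBL KO. It stood at 18437 and 11532 CPM in AAVS1 CBE and at 12401 and 8670 CPM in HOTSCRAMBL CBE. The HOTSCRAMBL CBE library was the lowest of the 4 within each line, and the other 6 libraries ordered by line and not by group; groups overlapped with both editors because the lines differ. With base editing RN7SL1 fell by 0.49 on the log2 scale (SE 0.06, edgeR adjusted p = 1.97e-06), to 0.67 of the AAVS1 level in MOLM13 and 0.75 in OCI-AML4. With knockout the difference was -0.11 (SE 0.06, edgeR adjusted p = 0.343). The difference between the 2 editors was tested itself and was 0.39 (SE 0.08, edgeR adjusted p = 0.00807). In that comparison 1 of 3 tested genes was called, against 3.19% of all tested genes (1.74% higher, 1.45% lower). The editor difference lost its call when any one MOLM13 library was left out: adjusted p was 0.225 without that of AAVS1 KO, 0.152 without that of HOTSCRAMBL KO, 0.150 without that of AAVS1 CBE and 0.100 without that of HOTSCRAMBL CBE. Scaled by library totals alone RN7SL1 was lower by 0.26 with knockout (log2 fold change -0.26, edgeR adjusted p = 0.00692), where the median of all genes was -0.17. Without the term for the labelled line the difference with base editing was -0.51 (edgeR adjusted p = 0.592).

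RN7SL4P carries the pseudogene suffix in its symbol and was counted at 1253 and 1082 CPM (MOLM13, OCI-AML4) in AAVS1 KO and at 701 and 575 CPM in HOTSCRAMBL KO. It was counted at 1246 and 1110 CPM in AAVS1 CBE and at 798 and 554 CPM in HOTSCRAMBL CBE. The 4 AAVS1 libraries lay between 1082 and 1253 CPM and the 4 HOTSCRAMBL libraries between 554 and 798 CPM, with no overlap. Group means were 1167 ± 121 CPM (SD, n = 2) in AAVS1 KO, 638 ± 88.6 in HOTSCRAMBL KO, 1178 ± 95.9 in AAVS1 CBE and 676 ± 172 in HOTSCRAMBL CBE. It fell by 0.87 on the log2 scale with knockout (SE 0.09, edgeR adjusted p = 1.79e-07) and by 0.81 with base editing (SE 0.09, edgeR adjusted p = 5.46e-07). The editors differed by -0.06 (SE 0.13, edgeR adjusted p = 0.904). Both calls held without the term for the labelled line, with adjusted p = 7.6e-05 and 0.00027, and with each of the 8 libraries left out in turn.

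ANKRD28, whose intron holds RN7SL4P on the other strand, stood at 125 and 118 CPM in AAVS1 KO, 69.6 and 56.2 CPM in HOTSCRAMBL KO, 107 and 101 CPM in AAVS1 CBE and 117 and 101 CPM in HOTSCRAMBL CBE. It fell by 0.96 with knockout (SE 0.17, edgeR adjusted p = 0.000254), while the value with base editing was 0.07 (SE 0.15, edgeR adjusted p = 0.850). The editor difference of ANKRD28 was -1.03 (SE 0.22, edgeR adjusted p = 0.00736) and kept its call in 1 of 8 fits with a library left out. With base editing RN7SL4P was called lower and ANKRD28 was not called. Counting used no strand and the exons of the 2 genes do not overlap, so the ANKRD28 values come from its exons only. Whether reads from the ANKRD28 intron were counted as RN7SL4P was not tested.

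RN7SL3, which is not one of the 6 genes, is another 7SL gene and 97.66% identical to RN7SL1. Whether reads of RN7SL1 were assigned to it was not tested, so its counts are no independent reading of 7SL. RN7SL3 stood at 770 and 578 CPM in AAVS1 KO and 765 and 567 CPM in HOTSCRAMBL KO. In AAVS1 CBE it stood at 883 and 614 CPM, and in HOTSCRAMBL CBE at 649 and 428 CPM. Its order over the libraries was that of RN7SL1 in that HOTSCRAMBL CBE was lowest in each line. RN7SL3 fell by 0.48 with base editing (SE 0.09, edgeR adjusted p = 0.000698) and differed by -0.02 with knockout (SE 0.09, edgeR adjusted p = 0.945). The call with base editing was lost without the MOLM13 library of AAVS1 CBE, with an adjusted p of 0.0651, in the fit without the line term (0.335) and with only the 4 libraries compared. The editor difference of RN7SL3, 0.46 (SE 0.13, edgeR adjusted p = 0.0475), was lost without any one of the 8 libraries.

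**Figure D2:**
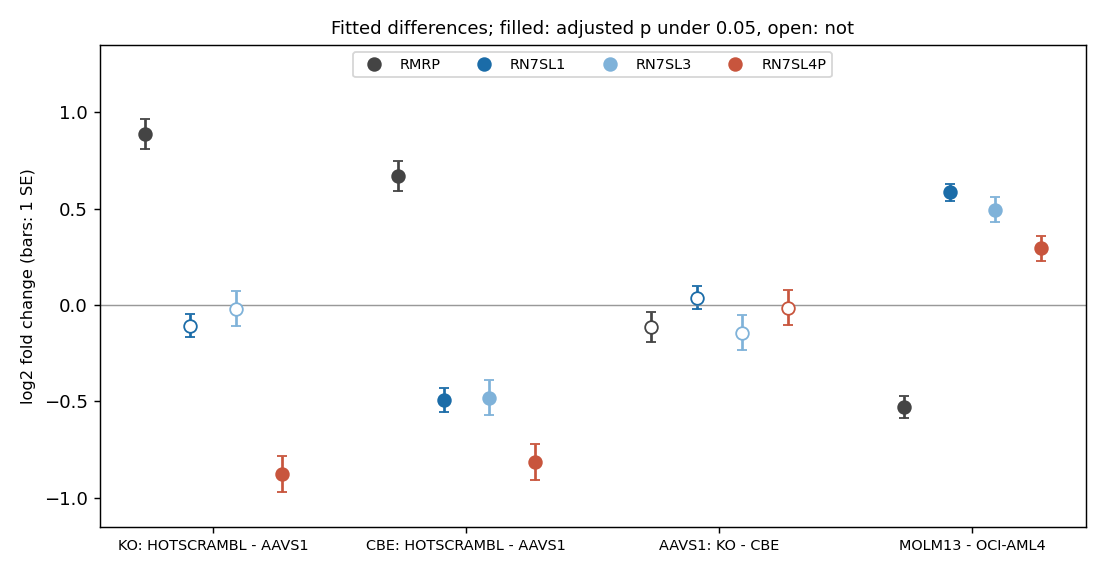
Fitted log2 fold changes with 1 SE of RMRP, RN7SL1, RN7SL3 and RN7SL4P in 4 comparisons, filled where the adjusted p was under 0.05. RMRP is above 0 and RN7SL4P below 0 with both editors, RN7SL1 and RN7SL3 are below 0 with base editing and open with knockout, and the AAVS1 comparison has no filled point.

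Counts of 7SL genes can also be set against each other within a library, where the scaling cancels; RN7SL1 and RN7SL3 have 299 bases and RN7SL4P 295. For every 100 counts of RN7SL1 there were 4.35 to 5.32 counts of RN7SL3 over the 8 libraries. RN7SL4P gave 7.08 and 8.54 counts per 100 of RN7SL1 in AAVS1 KO (MOLM13, OCI-AML4) and 4.01 and 5.20 in HOTSCRAMBL KO. In AAVS1 CBE it gave 6.76 and 9.63, and in HOTSCRAMBL CBE 6.43 and 6.39. The ratio was lower in HOTSCRAMBL within both editors and lines, by a small step in the MOLM13 libraries of the base editor. With knockout, RN7SL1 gave 103 and 43.9 counts per 100 of RMRP under AAVS1 and 54.6 and 20.9 under HOTSCRAMBL. With base editing it gave 87.1 and 41.9 under AAVS1 and 35.6 and 20.7 under HOTSCRAMBL. In each line the HOTSCRAMBL ratio was thus the lower one for both editors. These ratios are descriptions, and no test was made of them. Per kilobase of gene model, RMRP stood at 65138 to 200652 CPM, RN7SL1 at 28995 to 61662, RN7SL4P at 1879 to 4247 and RN7SL3 at 1430 to 2954 over the 8 libraries. The ranges of RMRP and RN7SL1 did not overlap, nor did those of RN7SL1 and RN7SL4P, while RN7SL4P and RN7SL3 overlapped; bases that cannot be told apart between 7SL genes lower the 7SL values by an unknown amount.

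**Figure D3:**
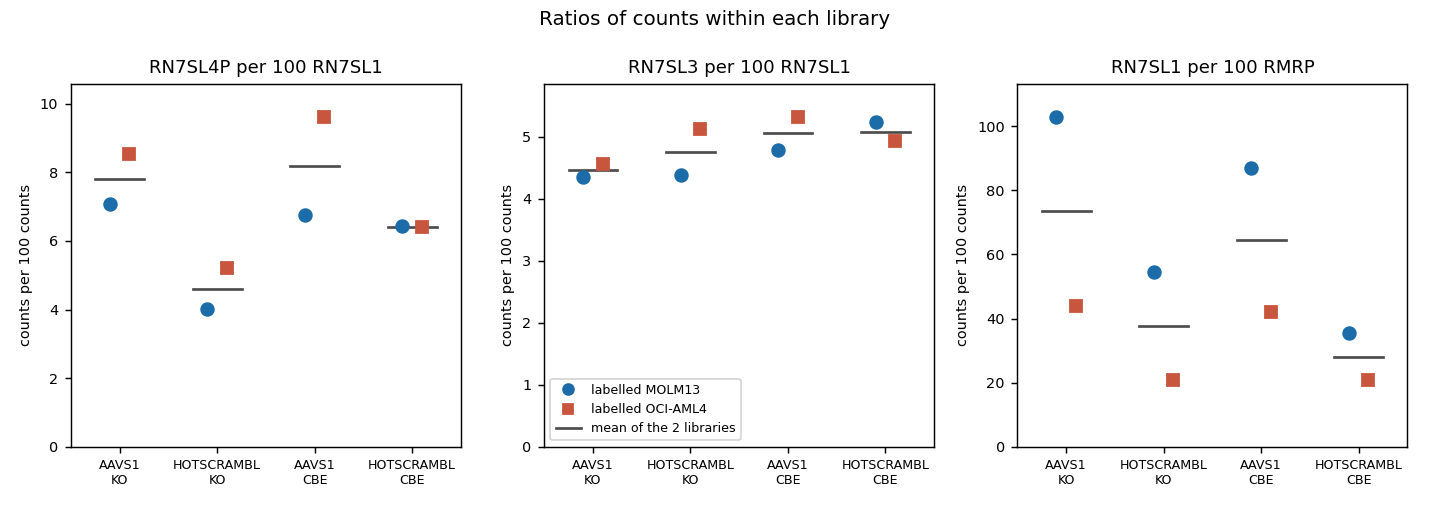
Counts of RN7SL4P and of RN7SL3 per 100 counts of RN7SL1, and of RN7SL1 per 100 counts of RMRP, in each library (vertical axes from 0, line at the mean of the 2 libraries). RN7SL3 stays between 4.35 and 5.32, whereas RN7SL4P falls to 4.01 and 5.20 in HOTSCRAMBL KO.

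The labelled lines differed in all 3 tested genes, with RN7SL1 and RN7SL4P higher in MOLM13 and RMRP higher in OCI-AML4. This was 3 of 3, 2 higher and 1 lower in MOLM13, where 0.495% of all tested genes were called (0.237% higher, 0.258% lower). RN7SL1 was 1.40, 1.58, 1.60 and 1.43 times as high in MOLM13 (knockout AAVS1 and HOTSCRAMBL, then base-edited AAVS1 and HOTSCRAMBL), a fitted log2 difference of 0.58 (SE 0.04, edgeR adjusted p = 2.76e-09). RMRP was 0.60, 0.60, 0.77 and 0.83 times as high, a log2 difference of -0.53 (SE 0.05, edgeR adjusted p = 2.49e-06). For RN7SL4P the ratios were 1.16, 1.22, 1.12 and 1.44, with a log2 difference of 0.29 (SE 0.07, edgeR adjusted p = 0.0359). RN7SL3 again moved like RN7SL1, at 0.49 (SE 0.06, edgeR adjusted p = 7.11e-05). The RN7SL4P call was lost when any one library was left out, with an adjusted p of up to 0.381, and under scaling by library totals (0.053). The line label is also the replicate number, and the lines were grown in different media, per the labels. Line, medium and replicate therefore cannot be told apart.

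Between the 2 control groups, AAVS1 KO and AAVS1 CBE, 0 of the 3 tested genes were called, as were 0 of all 24057 (0%), with 918 at an unadjusted p under 0.05. The log2 differences were 0.04 for RN7SL1 (SE 0.06), -0.01 for RN7SL4P (SE 0.09) and -0.11 for RMRP (SE 0.08), with edgeR adjusted p of 0.992, 0.998 and 0.991. With limma-voom, RMRP was called at -0.27 (adjusted p = 2.5e-14) and RN7SL1 at -0.057 (adjusted p = 0.0136), the 2 genes which that tool called, and DESeq2 called 35 genes, 0 of the 3 among them. Whether the effect of HOTSCRAMBL editing differed between the line labels was tested by an interaction term, which called 0 of 3 and 0 of all tested genes (0%), with 985 at an unadjusted p under 0.05; limma-voom called 0 genes and DESeq2 67. MOLM13 minus OCI-AML4, that difference of effects was 0.01 for RN7SL1 (SE 0.09), 0.22 for RN7SL4P (SE 0.12) and 0.07 for RMRP (SE 0.14).

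The genome holds many further copies of these RNAs, and 973 named ones were in the table: 677 of 7SL, 293 of 7SK, 1 of RMRP and 2 of RNase P RNA. Of these, 399 were at 0 in all libraries, the RMRP and RNase P RNA copies among them, and 246 were tested. With knockout 1 copy was called higher and 0 lower, with base editing 1 higher (RN7SKP64) and 1 lower (RN7SL3), and averaged over the editors 2 higher and 3 lower, where 8.76%, 8.83% and 12.3% of all tested genes were called. Their median log2 fold change was -0.23 with knockout and -0.25 with base editing, against -0.01 and -0.02 over all tested genes. Between the 2 AAVS1 groups, where no gene was called, that median was -0.13. Summed 7SL copies, RN7SL3 among them, went from 1138 to 1101 CPM (MOLM13) and 913 to 877 CPM (OCI-AML4) with knockout. With base editing they went from 1257 to 968 and 966 to 719 CPM. Summed 7SK copies went from 334 to 345 and 170 to 168 CPM with knockout. With base editing they went from 297 to 285 and 182 to 193 CPM. The 5 copies with the highest mean level were RN7SL3, RN7SKP255, RN7SL5P, RN7SKP206 and RN7SL471P. RN7SKP255 (chromosome 14, 89712511 to 89712823, plus strand), 83.19% identical to RN7SK, stood at 206, 212, 174 and 140 CPM in the MOLM13 libraries and at 41.6, 34.2, 52.5 and 32.3 CPM in the OCI-AML4 libraries, in the same order of groups. The lines did not overlap, and the log2 difference was 2.16 (SE 0.13, edgeR adjusted p = 5.55e-11). RN7SKP255 differed by -0.05 between HOTSCRAMBL and AAVS1 with knockout (SE 0.18, edgeR adjusted p = 0.921) and by -0.45 with base editing (SE 0.18, edgeR adjusted p = 0.126), neither called. It is a copy, and its level is no measure of 7SK.

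The genes that work with these RNAs were read from fixed lists, as mRNA in the same pull-downs. Counts of calls are given for the HOTSCRAMBL contrasts in the order knockout, base editing and average, to be read against the shares of all genes given above. Of 64 calls of named list genes over the comparisons, 17 held with each of the 8 libraries left out in turn and 8 held in none of those fits.

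In the list of 7SK and P-TEFb proteins 19 of 20 genes were tested, of which 2, 4 and 2 were higher and 2, 2 and 2 lower. The median log2 fold changes were -0.01, 0.24 and 0.10. HNRNPA1 and HNRNPA2B1, RNA-binding proteins that take up 7SK released from P-TEFb, went opposite ways: averaged over the editors HNRNPA1 rose by 0.64 (SE 0.08, edgeR adjusted p = 4.83e-07) and HNRNPA2B1 fell by 0.45 (SE 0.06, edgeR adjusted p = 1.2e-05), and both calls held without each library. The average joins unlike values for HNRNPA1, which rose by 0.34 with knockout and by 0.95 with base editing. Its knockout call was lost under scaling by library totals, without the term for the labelled line and with only the 4 libraries compared. HNRNPA2B1 stood at 934 to 1021 CPM in AAVS1 KO against 637 to 678 CPM in HOTSCRAMBL KO. CDK9, the kinase of P-TEFb, fell by 0.78 with knockout (SE 0.18, edgeR adjusted p = 0.0044) and was at -0.09 with base editing; the knockout call was lost without either HOTSCRAMBL KO library or the OCI-AML4 library of AAVS1 KO. HEXIM1, the inhibitor that 7SK presents to P-TEFb, fell by 0.87 with base editing (SE 0.19, edgeR adjusted p = 0.00254), from 72.5 and 65.1 CPM to 39.3 and 36.1 CPM. That call was lost without either AAVS1 CBE library, without the MOLM13 library of HOTSCRAMBL CBE (edgeR adjusted p = 0.150) and with only the 4 libraries compared (0.0704). With knockout HEXIM1 was at 0.34 and not called, and its editor difference of 1.21 (SE 0.26, edgeR adjusted p = 0.00582) held in 2 of the 8 fits with a library left out. ELL2 was called higher with knockout, in 0 of 8 fits with a library left out, and EAF2 with base editing, in 3 of 8.

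Among the 11 genes of the signal recognition particle, its receptor and the Sec61 channel, 1, 2 and 3 were higher and 0, 0 and 0 lower, with medians of 0.28, 0.56 and 0.45. SRP14, which binds the Alu domain of 7SL, stood at 10.5 and 24.2 CPM in AAVS1 KO, 36.7 and 38.9 CPM in HOTSCRAMBL KO, 21.1 and 26.5 CPM in AAVS1 CBE and 54.8 and 47.2 CPM in HOTSCRAMBL CBE. HOTSCRAMBL libraries were above AAVS1 libraries within both editors, and the averaged rise was 1.13 (SE 0.21, edgeR adjusted p = 0.000297), which held without each library. Its partner SRP9 rose by 1.52 with base editing (SE 0.39, edgeR adjusted p = 0.0127) and was at 0.04 with knockout (SE 0.49). The SRP9 call was lost without the MOLM13 library of AAVS1 CBE (0.69, edgeR adjusted p = 0.596), without either HOTSCRAMBL CBE library, and with only the 4 libraries compared (0.166).

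Of the 12 proteins of RNase P and RNase MRP, 2, 1 and 1 were higher and 0, 0 and 0 lower, with medians of 0.15, 0.07 and 0.30. POP4, a subunit of both particles, stood at 60.6 and 69.9 CPM in AAVS1 KO, 149 and 147 CPM in HOTSCRAMBL KO, 77.7 and 63.8 CPM in AAVS1 CBE and 125 and 91.7 CPM in HOTSCRAMBL CBE. POP4 rose by 1.18 on the log2 scale with knockout (SE 0.17, edgeR adjusted p = 2.59e-05) and by 0.62 with base editing (SE 0.17, edgeR adjusted p = 0.0168), and its knockout and averaged calls held without each library, the base editing call in 5 of 8 fits. RPP38, another shared subunit, rose by 0.76 with knockout (SE 0.24, edgeR adjusted p = 0.0459), a call that no fit with a library left out kept.

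In the list of RNA polymerase III and its factors, 33 genes were tested, 1, 1 and 2 were higher and 4, 3 and 4 lower, with medians of -0.07, 0.02 and 0.02. SNAPC4, the large subunit of the SNAPc complex that binds the promoters of RMRP, 7SK and RNase P RNA, fell by 0.97 with knockout (SE 0.15, edgeR adjusted p = 6.65e-05) and by 0.82 with base editing (SE 0.14, edgeR adjusted p = 0.000308). It stood at 168 to 236 CPM in the 4 AAVS1 libraries and at 89.8 to 109 CPM in the 4 HOTSCRAMBL libraries, with no overlap. BRF1, the TFIIIB subunit used at genes with internal promoters, fell by 0.87 averaged over the editors (SE 0.14, edgeR adjusted p = 3.92e-05), and BDP1, the TFIIIB subunit shared by both promoter types, by 0.40 (SE 0.07, edgeR adjusted p = 0.000232). The averaged calls of SNAPC4, BRF1 and BDP1 held without each library. The mRNA of these factors was lower in HOTSCRAMBL libraries in which RMRP was higher and RN7SL4P lower. Other factors went the opposite way: averaged over the editors POLR3D was called higher at 0.34 and GTF3A at 0.51. The POLR3D call held in 7 of 8 fits with a library left out and the GTF3A call in 1 of 8. Whether the levels of SNAPC4, BRF1 and BDP1 bear on those of RMRP and RN7SL4P was not tested. The base editing call of SNAPC4 held in 7 of 8 such fits. POLR3D was called higher with knockout, in 3 of 8, and GTF3C4 with base editing, in 2 of 8.

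Other small RNAs of RNA polymerase III were represented by 12 tested genes, of which 3, 2 and 3 were higher and 0, 1 and 1 lower, the lower one being RN7SL3. The Y RNAs, which bind the Ro60 protein, carried the calls. RNY1 stood at 10.3 and 13.8 CPM in AAVS1 KO, 31.5 and 37.0 CPM in HOTSCRAMBL KO, 6.96 and 11.1 CPM in AAVS1 CBE and 37.6 and 29.7 CPM in HOTSCRAMBL CBE, with no overlap between target groups. It rose by 1.73 averaged over the editors (SE 0.24, edgeR adjusted p = 6.41e-06), and RNY3 rose by 2.26 (SE 0.39, edgeR adjusted p = 0.00017); both averaged calls held without each library. RNY4 rose by 3.61 with knockout (SE 0.87, edgeR adjusted p = 0.00624), to 10.1 and 6.26 CPM. The RNY4 call was lost without the MOLM13 library of AAVS1 KO (2.70, edgeR adjusted p = 0.358) or either HOTSCRAMBL KO library, with limma-voom and with only the 4 libraries compared (0.0706).

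**Figure D4:**
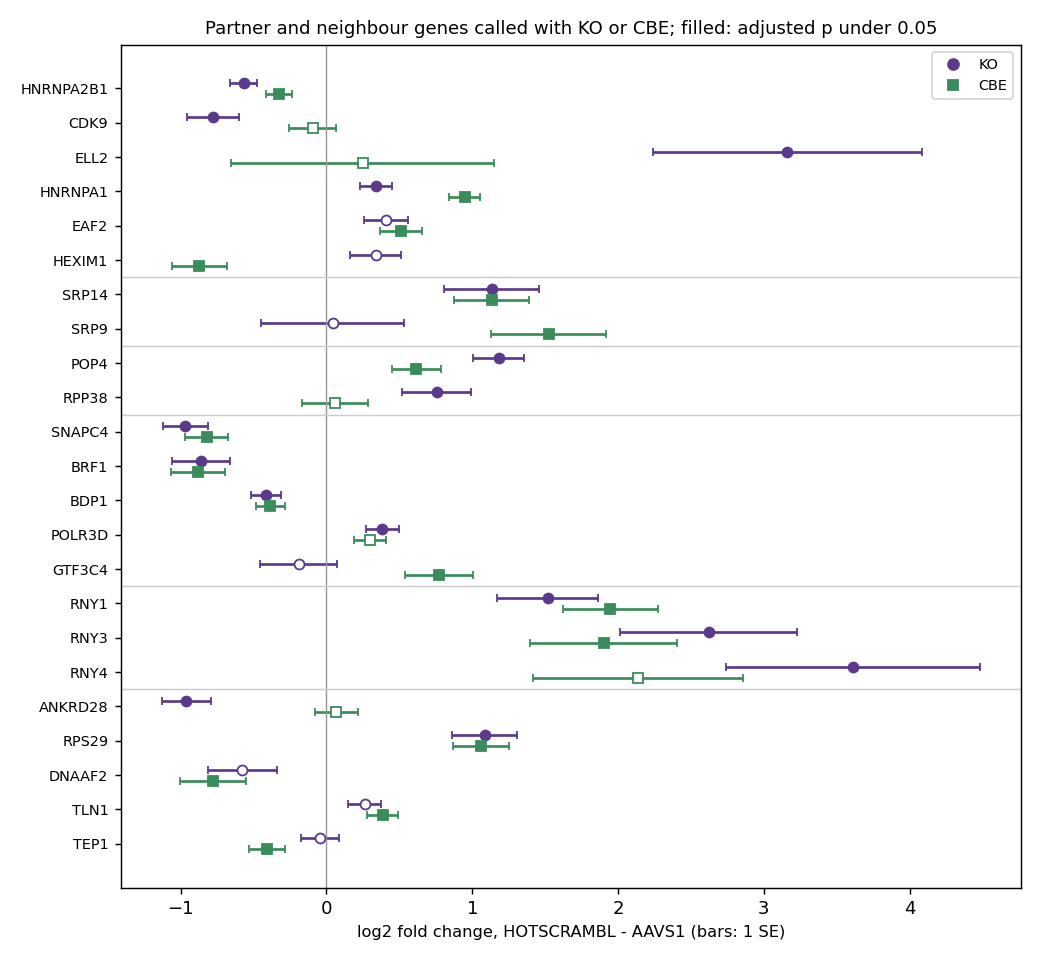
Fitted log2 fold changes with 1 SE, HOTSCRAMBL minus AAVS1, of genes named by the rule with knockout (circles) or base editing (squares), filled where the adjusted p was under 0.05. Horizontal lines separate the lists, from 7SK and P-TEFb proteins at the top to neighbours and hosts at the bottom. SNAPC4, BRF1 and BDP1 are filled below 0 and RNY1 and RNY3 filled above 0 with both editors. With only the 4 libraries compared, BRF1, BDP1, RNY1 and RNY3 lost these calls with both editors and SNAPC4 with base editing.

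Of 15 neighbours and hosts of the 6 genes, 1, 2 and 3 were higher and 1, 2 and 2 lower. RPS29, a ribosomal protein gene whose intron holds RN7SL1, rose by 1.09 with knockout (SE 0.22, edgeR adjusted p = 0.00173) and by 1.06 with base editing (SE 0.19, edgeR adjusted p = 0.000438), where RN7SL1 itself was not called and lower; the knockout call held in 6 of 8 fits with a library left out and the base editing call in 8. It stood at 28.7 to 47.6 CPM in AAVS1 libraries and at 70.2 to 103 CPM in HOTSCRAMBL libraries. With base editing TLN1 was called at 0.39 (SE 0.11), DNAAF2 at -0.78 (SE 0.23) and TEP1 at -0.41 (SE 0.13). The DNAAF2 call held in 0 of 8 fits with a library left out, with an adjusted p of up to 0.491, and those of TLN1 and TEP1 in 2 of 8 each. CCDC107, nearest to RMRP, was at -0.30 with knockout (SE 1.06) and -1.04 with base editing (SE 1.23), neither called, on 5 to 77 counts per library.

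The genes whose level followed each RNA most closely over the 8 libraries were found by the root mean square difference of centred log2 CPM among 7252 genes with a mean of at least 20 CPM. RN7SL1 was closest to PURB (0.10) and RN7SL3 (0.11), RN7SL4P to SFSWAP (0.10) and PHRF1 (0.10), and RMRP to IRF2BPL (0.10) and PPT1 (0.13). The median distance of all candidates was 0.46, 0.51 and 0.57 for the 3 RNAs. Of the 2 genes closest to each RNA, RN7SL3 alone came from the same family as the RNA it followed.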

How the data were processed

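ChIRP RNA was measured in 8 libraries, 2 for each of 4 groups taken from the sample titles. The authors deposited whole-number counts per gene, made with featureCounts 2.0.6 and per the file headers, on GRCh38 gene models of Ensembl 112; strand was not used, reads of a pair were counted separately, and reads over several genes or positions were left out. Aligner settings are not given in the sources used here. Records of 2 genes broken over lines were rejoined, and 0 library columns were left over. Counts were tested with edgeR 4.0.16 (R 4.3.3), TMM scaling, a minimum count of 10 and the labelled line as a covariate, which is also the replicate number and pairs the libraries (3 residual degrees of freedom; 2 with the interaction). The Benjamini-Hochberg threshold was 0.05. The fit was run on simulated data that held no line effect, so that run does not test calls that rest on the line term. DESeq2 1.42.0 and limma 3.58.1 were alternatives, beside other scalings, filters and left-out libraries. Named genes were all 6 genes, up to 3 calls with the smallest p per direction, list and comparison, the 5 highest copies, overlapping or nearest genes, and the 2 most alike genes. The 6 genes and the lists were chosen with earlier results of these data known. RefSeq promoter sequences of these genes were not used here. Some items are not reported here. Intervals cover counting error only.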

Additional observations from a re-analysis of the deposited data

Results flagged for a closer look

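The effect of HOTSCRAMBL editing differed between knockout and base editing, by a test of the difference itself, for 5 genes described above. The difference, knockout minus base editing on the log2 scale, was 0.39 for RN7SL1, 0.46 for RN7SL3, 1.21 for HEXIM1, -0.61 for HNRNPA1 and -1.03 for ANKRD28. RN7SL1 and RN7SL3 were lower with base editing and not called with knockout in both cases. RN7SL3 lost the call without any one of the 8 libraries, HNRNPA1 and ANKRD28 kept it in 1 of those 8 fits, HEXIM1 in 2 and RN7SL1 in 4. The cause was not tested.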

How the results depend on the processing

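Over the alternatives, RMRP stayed higher and RN7SL4P lower in HOTSCRAMBL libraries with both editors (log2 fold change of RMRP 0.73 to 1.05 with knockout and 0.48 to 0.83 with base editing, of RN7SL4P -1.03 to -0.80 and -0.98 to -0.67), and RN7SL1 stayed lower with base editing (-0.63 to -0.42). Without the replicate block, that is without pairing by labelled line, 1 gene was called with knockout, 1 with base editing and 1 on average in place of 2, 3 and 3, and 0 in place of 1 for the editor difference. That difference called 2 genes with limma-voom and 0 to 1 with single libraries left out. For AAVS1 KO against AAVS1 CBE limma-voom called 2 in place of 0, with RN7SL1 at -0.057 where the reported value was 0.04; the cause was not tested. Over all tested genes, DESeq2 called 4150 with knockout, 3350 with base editing, 4861 on average, 2204 in the editor difference and 715 between line labels, in place of 2108, 2124, 2958, 767 and 119. Fits with single libraries left out, which have fewer samples, called as few as 701 and 579 for the 2 editors, 1662 on average, 234 in the editor difference and 26 between line labels. Fits of only the 4 libraries compared called 662 and 530, the fit without the replicate block 503 in the editor difference, and limma-voom 250 between line labels. Scaling by nuclear protein-coding genes was chosen after seeing the data. The spread was estimated from 2 libraries a group. In a fit that leaves a group with 1 library, that library is assumed to vary like the others.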
